A study of Homo sapiens with 15 samples.

Results

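The untreated samples are the 3 of 15 libraries in this series whose nuclei received no Nuclease P1, and they were chosen by their labels alone. All libraries came from K562, an established human chronic myeloid leukemia cell line of wild-type genotype, as 3 biological replicates per amount of enzyme. Cells were crosslinked with formaldehyde and lysed, and the nuclei were warmed in dilute SDS and incubated with 0, 0.01, 0.1, 1 or 10 U of Nuclease P1, an enzyme that cuts single-stranded DNA. Every free 3′-OH end was then tailed with A residues by terminal transferase, copied from an oligo(T) primer and sequenced, so that the first genomic base of read 2 marks the 3′ terminus. Without P1 the library holds the 3′ ends that were already in the DNA, and ends formed in living cells and ends formed during fixation, heating and DNA isolation cannot be told apart. A model caveat is that K562 is 1 cell line with gained and lost chromosome segments, so breaks per copy of DNA and copies of DNA per cell cannot be told apart either.

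Single-strand breaks are among the most frequent lesions of DNA. They arise from sugar damage, from the excision of altered bases and from topoisomerase action, and discontinuous synthesis of the lagging strand leaves 3′ ends as well. In mitochondria a short additional strand, the 7S DNA, is laid down on the light strand of the noncoding control region and ends at a defined place, so that its 3′ end is a known natural terminus on the heavy strand.

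A site below is 1 position on 1 strand with at least 1 terminus, and a terminus is 1 read pair ending there. On chromosomes 1 to 22 and X the replicates held 3859475, 2156151 and 2253307 sites, or 1361, 760 and 795 sites per Mb of sequenced reference. Of these sites 92.4%, 91.8% and 92.4% carried a single terminus. Mitochondrial depth ran the other way, with 112179, 468797 and 486276 termini. Per 100 nuclear termini there were 2.65 mitochondrial termini in replicate 1 against 19.5 and 19.6 in replicates 2 and 3. Replicate 1 therefore stood apart. Many results are given by replicate, and close pairs also without replicate 1. The labels do not state which strand the files name. It was read as the strand of read 2, with the break on its complement, because the authors' filter shows upstream of the sites on that strand and because the known 7S DNA end then falls on the heavy strand. The heavy strand of that end is therefore no result of its own, and with the opposite reading the strands, facing directions and complements given below would all swap.

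The strongest nuclear positions shared a short sequence, and the 5 with the highest count in their weakest replicate are shown for that reason. Each line gives 30 bases of the broken strand of GRCh37, read 5′ to 3′ and ending at the 3′ terminus, with capitals marking CTTGAAAAAAA, the longest run with all 4 letters that the 5 share.
chr6:99944633-99944662, minus strand, intron of USP45: acctgCTTGAAAAAAAatttttttttttaa
chr5:15422712-15422741, minus strand, no annotated gene: catgatgCTTGAAAAAAAaatttttttaat
chr4:57263892-57263921, minus strand, intron of PPAT: tttatgtCTTGAAAAAAAtttttttttaat
chr16:4402981-4403010, minus strand, intron of PAM16: accctatCTTGAAAAAAAaaaatttttttt
chr7:77026116-77026145, plus strand, intron of GSAP: ctgtttgCTTGAAAAAAAaattttttttaa

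At the position in USP45, a deubiquitinase gene, the replicates held 1416, 2332 and 2234 termini. The chromosome 5 position held 925, 2188 and 1705, and the position in PPAT, which encodes the first enzyme of purine synthesis, held 807, 1743 and 1341. All of these were lowest in replicate 1, the library with the most nuclear sites. In PAM16, a subunit of the mitochondrial import motor, there were 734, 1081 and 1158 termini, and in GSAP, a γ-secretase activating protein, 580, 1116 and 819. Every one of the 5 ends in A or T, and in each a run of A is followed by a run of T before the terminus. An A that ends the strand cannot be told from the first A of the added tail, so such a terminus can be off by the length of its A run. Whether these positions are breaks in the DNA or ends produced by priming or tailing at A and T runs was not tested.

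Positions with at least 100 termini in every replicate formed 24 groups when those within 50 bp on 1 strand were joined, and 10 of these 24 held CTTGAAAAAAA in the 40 bases up to the terminus. The letters were chosen after the sequences were seen, and the values are a description. On the opposite strand of the same windows the motif was found in 0 of 24 groups. Among all sites the share with the motif on the broken strand was 0.00827%, 0.0151% and 0.0134%, and on the other strand 0.00378%, 0.00431% and 0.00364%. Another 5 of the 24 groups lay within 10 kb of chromosome 1 next to the centromere, and the strongest of them held 324, 247 and 276 termini at position 121485359. Most groups with neither the motif nor that location also had a run of A followed by a run of T. Those in IMPG1, CTR9, TP53BP2 and DCAF1 were among them, while those on chromosome X did not have it. The A and T runs were thus not confined to groups with the motif.

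The density of sites differed between chromosomes far more than between replicates. Chromosome 22 was the densest, with 1.96, 1.91 and 1.89 times the sites per base of all 23 chromosomes. Chromosome 19 followed with 1.65, 1.62 and 1.62, and chromosome 16 with 1.39, 1.38 and 1.37. At the other end chromosome X had 0.545, 0.536 and 0.533, chromosome 13 had 0.605, 0.617 and 0.612, and chromosome 14 had between 0.693 and 0.701. In the order of means, 8 of the 22 pairs of neighbours had replicate ranges that overlapped, among them chromosomes 1 and 21, and the other pairs did not overlap. The ratio of the densest to the sparsest chromosome was 3.57 ± 0.0220 (SD, n = 3). Density was above the genome value in every replicate for 12 chromosomes (52.2%) and below it in every replicate for 11 (47.8%), so no chromosome changed sides between replicates.

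**Figure D1:**
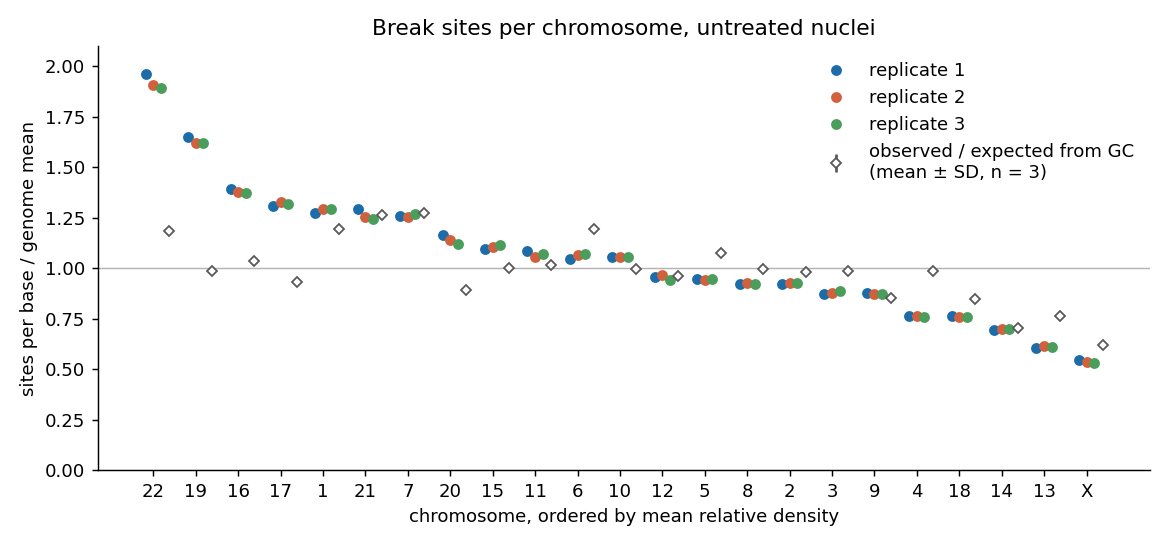
Sites per sequenced base of each chromosome over the value of chromosomes 1 to 22 and X together, with 1 point per untreated replicate, and the same density divided by that expected from the GC content of 10 kb bins (diamonds, mean ± SD of 3 replicates). The replicates nearly coincide, and chromosome 22 moves from 1.92 to 1.18 while chromosome X moves from 0.538 to 0.618.

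Denser chromosomes tended to be richer in GC. Across the 23 chromosomes GC content and mean density had a Pearson r of 0.858, given as a description. When each 10 kb bin was set against bins of its own GC content, the ratio of the highest to the lowest chromosome was 2.07 ± 0.0229 (SD, n = 3), an alternative chosen after seeing the data. The highest chromosomes were then 7 (1.27 ± 0.00628) and 21 (1.26 ± 0.0231), and chromosome 19 lay at 0.985 ± 0.00518. Chromosomes X (0.618 ± 0.0104), 14 (0.702 ± 0.00438) and 13 (0.764 ± 0.00344) stayed the lowest (SD, n = 3 each).

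Sites were more frequent in GC-rich DNA. In the tenth of 100 kb bins with the least GC (mean 34.6%) the density was 0.457, 0.444 and 0.441 of the genome value. It rose at every step to 2.05, 2.00 and 2.00 in the tenth with the most GC (51.7%). The ratio of the highest to the lowest of these classes was 4.51 ± 0.0267 (SD, n = 3). With each bin divided by the density of its own chromosome, again chosen after seeing the data, the ratio was 3.58.

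At the scale of the 201 bp around a base the relation rose and then turned. Between 20 and 24% GC the density was 0.0625, 0.0883 and 0.0851 of the genome value. It was highest between 60 and 64% GC, at 2.79, 2.56 and 2.52, and nearly as high between 65 and 69%. Above that it fell again, to 0.351, 0.349 and 0.391 between 80 and 84% GC, a class that holds 0.0597% of the bases. How evenly the polymerases of the protocol copied GC-rich DNA was not tested. Nuclear termini with more than 40% T in the 20 upstream bases had been removed by the authors, while the bases themselves still counted in the densities. The part of this filter in the low densities of AT-rich DNA, here and in the 100 kb bins, was not tested.

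**Figure D2:**
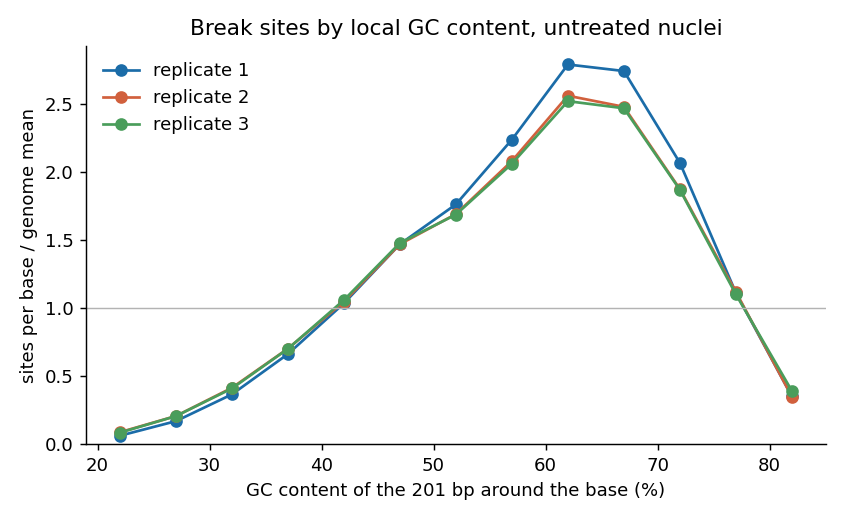
Sites per base over the genome value (y axis) in classes of 5 percentage points of the GC content of the surrounding 201 bp (x axis), with 1 line per untreated replicate. All replicates peak between 60 and 64% GC, where replicate 1 lies highest, and fall below the genome value in the class from 80 to 84%.

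The terminus itself was marked by its bases. The 3′-terminal nucleotide was G or C at 79.3%, 75.9% and 76.8% of sites, against 40.9% of the genome. The nucleotide before it was G or C at 84.0%, 81.2% and 81.2% of sites. Further inside the strand this faded, and at 3 bases before the terminal nucleotide the values were 47.5%, 45.8% and 45.9%. They stayed above the genome share at 20 bases before it, at 46.4%, 46.3% and 46.3%. The base just beyond the terminus was A at 36.4%, 36.0% and 36.0% of sites, against 29.5% of the genome. That base lies in the window of the authors' filter, and the part of A read as tail was not tested. C was the most frequent terminal base (46.2 ± 1.06%) and G the most frequent base before it (44.3 ± 1.39%; SD, n = 3 each).

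As dinucleotides ending the broken strand, CC made up 23.4%, 22.6% and 22.6% of sites, which is 4.39 times its mean share of the genome. GC, GG and CG stood at 4.29, 3.93 and 3.70 times. No dinucleotide with an A or T exceeded its genome share, and CA came closest at 0.956 times. The least frequent relative to the genome were AT (0.147 times) and TA (0.155 times). Among sites with at least 2 termini the terminal nucleotide was G or C in 83.2 ± 1.33% (SD, n = 3). The strongest positions went the other way, since only 6 of the 24 groups with at least 100 termini ended in G or C. A terminal A cannot be told from the tail, and the preference of terminal transferase for particular ends was not tested.

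The strands of the nuclear genome were broken almost equally. The plus strand carried 50.5% (95% exact binomial interval 50.46 to 50.56), 50.4% (50.35 to 50.48) and 50.4% (50.36 to 50.49) of the sites, intervals that cover counting error only. By chromosome and replicate the share ran from 49.6% to 51.0%. It was above 50% in all 3 replicates on 22 of the 23 chromosomes and below it in all 3 on 0. The authors' filter for T-rich sequence left at most 7 T in the 20 bases upstream of the read on one strand of the files and at most 8 on the other in every replicate, and its part in the small excess was not tested.

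Many sites lay close together. With every replicate thinned to 2156151 sites, the median distance to the next site on either strand was 669, 662 and 662 bp, while the mean was 1367, 1368 and 1367 bp. The 10th percentile was 58.2, 36.0 and 38.2 bp. A neighbour on the same strand within 10 bp was found for 5.41%, 10.4% and 9.75% of sites, so at this depth replicate 1 had the fewest close pairs by a wide margin. The mean was 8.52 ± 2.72% (SD, n = 3), and 10.1% without replicate 1. At full depth the shares were 9.11%, 10.4% and 10.1%, a narrower margin, and the part of thinning in the wide one was not tested. A neighbour on the opposite strand within 10 bp was rarer and more even, at 1.73%, 1.80% and 1.79% of sites at equal depth.

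On the same strand pairs were most frequent at adjacent bases. Pairs 1 bp apart were 14.3, 30.1 and 29.5 times as frequent as pairs more than 500 and up to 1000 bp apart, the reference used here. There were 19.6, 26.1 and 25.5 such pairs per 1000 sites, and whether adjacent sites are separate breaks or 1 break read with a shifted end was not tested. The pair ratios here and below are at full depth, where replicate 1 had the most sites. The part of depth in the differences between replicates was not tested. The ratio was 2.81, 4.08 and 4.14 at 6 bp, 2.77, 3.97 and 3.92 at 10 bp and 1.68, 1.99 and 1.90 at 60 bp. Small rises broke the decline in all replicates, with 1.68, 2.00 and 1.95 at 71 to 80 bp against 1.54, 1.77 and 1.72 at 81 to 90 bp. Another stood at 331 to 340 bp, with 1.20, 1.34 and 1.35 against 1.16, 1.25 and 1.27 at 351 to 360 bp. Without the densest 1% of 100 kb bins the rise at 331 to 340 bp was nearly gone, with 1.13, 1.19 and 1.20 against 1.12, 1.17 and 1.19 at 321 to 330 bp and 1.12, 1.15 and 1.17 at 351 to 360 bp. The values at 71 to 80 bp were then 1.66, 1.98 and 1.94, against 1.51, 1.70 and 1.67 at 81 to 90 bp.

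On opposite strands a sharp peak appeared where the ends overlapped by a few bases. When the plus-strand 3′ end lay 1 bp beyond the minus-strand 3′ end, pairs were 2.47, 2.24 and 2.25 times as frequent as the reference, and at 2 bp they were 2.16, 1.99 and 1.96 times. At 4 bp the values were down to 1.18, 1.34 and 1.26. Among the pairs at 1 bp the shared dinucleotide was GC in 23.6%, 20.4% and 19.6%, against 4.27% of genome dinucleotides. GC is its own reverse complement, so both strands of such a pair ended in GC. Among all sites GC was the ending dinucleotide in 19.2%, 17.5% and 18.3%, so its share among these pairs was only a little higher. Ends that overlap in this way share their last 2 bases. Both of these were G or C at 65.3 ± 2.46% of all sites (SD, n = 3), against 15.7% of the genome. The part of this base preference in the peak was not tested.

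A broader excess was found for ends that faced away from each other. With the minus-strand 3′ end to the left and the plus-strand 3′ end to the right, pairs peaked at 120 to 139 bp, at 1.71, 1.99 and 1.92 times the reference. In the mirror arrangement, with ends facing each other at 121 to 140 bp, the values were 1.14, 1.22 and 1.18. Over distances from 100 to under 180 bp the outward pairs were 1.45, 1.56 and 1.56 times as frequent as the inward ones, with 334532 outward and 230202 inward pairs in replicate 1. Without the densest 1% of bins the ratio was 1.45, 1.59 and 1.56. These windows were chosen after seeing the data.

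**Figure D3:**
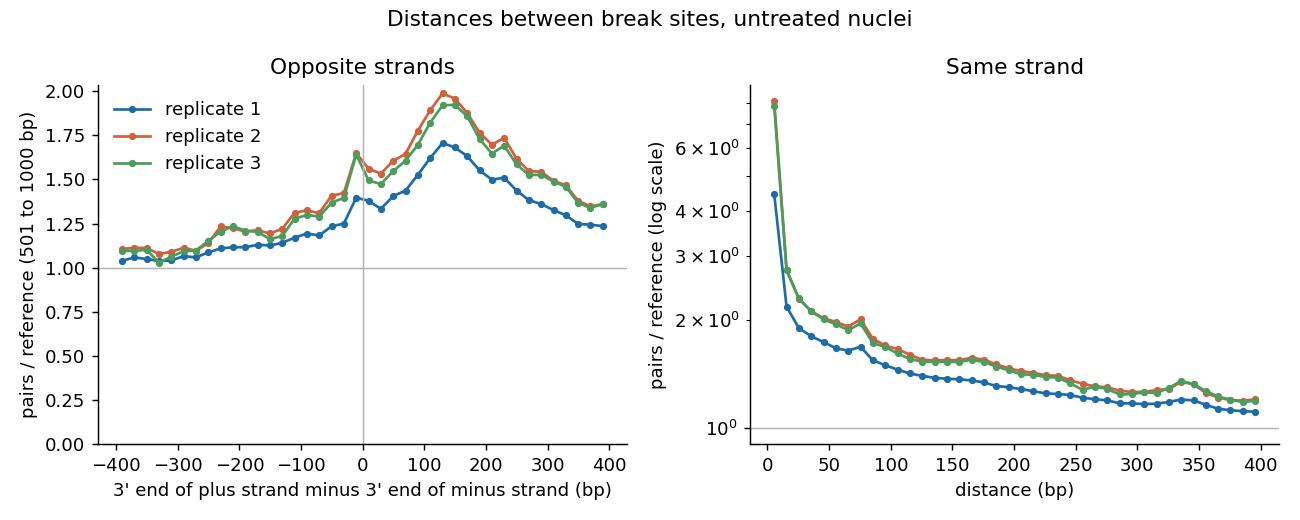
Frequency of pairs of sites by distance, over that at more than 500 to 1000 bp, for opposite strands in steps of 20 bp (left; positive values are ends that face away from each other) and for the same strand in steps of 10 bp (right, log scale), with 1 line per untreated replicate. The left panel is higher on its right side in every replicate, with a maximum of 1.71, 1.99 and 1.92 at 120 to 139 bp, and the right panel is highest at the shortest distances.

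Within genes the density was highest in coding sequence and at promoters. Coding exons had 2.01, 1.88 and 1.84 times the genome density, and promoters, taken as 1000 bp on each side of the starts of protein-coding genes, had 1.87, 1.91 and 1.94 times. Exons outside coding sequence stood at 1.39 ± 0.0212, introns at 1.06 ± 0.0116 and intergenic DNA at 0.898 ± 0.00839 (SD, n = 3 each). The ranges of coding exons and promoters overlapped, and those of the other classes named did not. Promoters are GC-rich, with a mean local GC content of 54.2% against 41.2% in introns. Against bases of the same local GC content, promoters had 1.12, 1.21 and 1.23 times the expected density and coding exons 1.23, 1.21 and 1.18 times, while intergenic DNA had 0.961, 0.943 and 0.937 times. Of all sites 44.2% lay in introns, 33.6% in intergenic DNA and 2.48% in promoters (means of 3 replicates).

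Around the start of transcription the strands differed. Template-strand breaks peaked in the 100 bp after the start, at 2.41, 2.73 and 2.79 times the genome density of a strand, where the coding strand had 2.08, 2.19 and 2.21 times, and the ranges did not overlap. The mean of the coding strand was highest between 200 and 100 bp before the start, with 2.14, 2.39 and 2.48 times in the replicates against 1.91, 2.01 and 2.05 on the template strand, although in replicate 1 the next 100 bp were slightly higher at 2.18. These windows were singled out after seeing the profile. Far from the start, 5000 to 4900 bp before it, both strands were at 1.43 ± 0.0582 and 1.41 ± 0.0290 (template and coding; SD, n = 3 each).

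**Figure D4:**
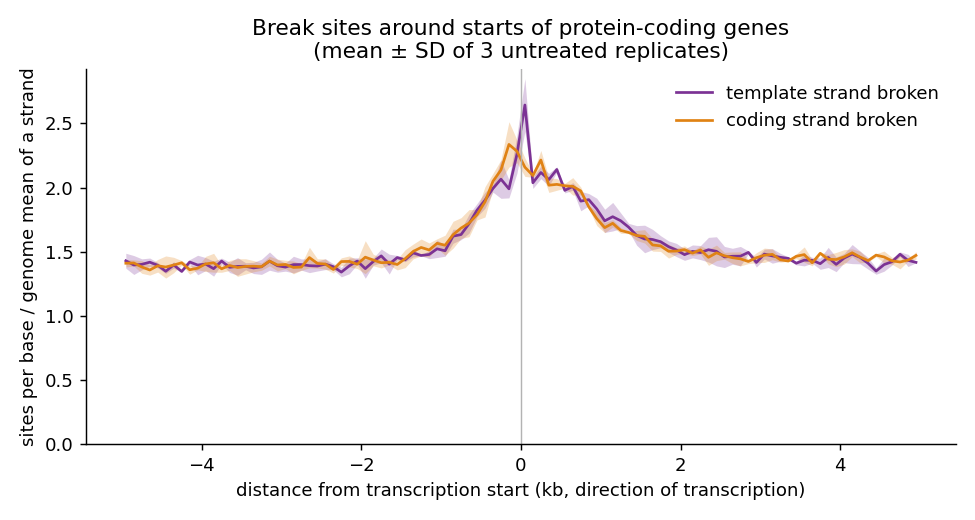
Sites per base over the genome mean of a strand (y axis) in steps of 100 bp within 5 kb of the starts of protein-coding genes (x axis, in the direction of transcription), for the template and the coding strand, as the mean (line) and SD (band) of 3 untreated replicates. The template strand reaches 2.64 just after the start and the coding strand 2.34 just before it.

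Among 11628 protein-coding genes of at least 20 kb the median body density was 1.15 times the genome value. It was above the genome value in all 3 replicates for 5889 genes (50.6%) and below it in all 3 for 3629 (31.2%). The densest gene was GNAZ on chromosome 22, which encodes a G protein α subunit, with 18.9, 16.4 and 18.1 times the genome density. FIBCD1 on chromosome 9, an acetyl-group binding membrane protein, had 18.1, 17.6 and 16.4 times. RSPH14 (16.6 ± 0.849), AIF1L (16.5 ± 0.392) and LAMC3, a laminin chain (16.5 ± 0.198; SD, n = 3 each), completed the 5 densest.

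All 5 are near neighbours of BCR or ABL1, whose fusion is the hallmark of this leukemia and is amplified in K562. BCR itself had 12.8, 12.6 and 11.9 times the genome density, ABL1, the tyrosine kinase of the fusion, had 8.31, 8.71 and 9.02 times, and the nucleoporin gene NUP214 had 7.97, 7.86 and 7.82 times. At the other extreme were the genes of the 9p21 deletion of K562. The tumour suppressor CDKN2A had 0 sites in each replicate, which allows at most 0.0800, 0.143 and 0.137 times the genome density. CDKN2B, the neighbouring inhibitor of cyclin-dependent kinases, had 1, 0 and 0 sites, and MTAP, a gene of methionine salvage, had 11, 1 and 2 sites over 135 kb. The gained and the deleted genes are those known for the labelled cell line.

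The 5 densest 100 kb bins were of 2 kinds. The first was chr9:133900001-134000000, with LAMC3 and AIF1L, at 16.8, 16.6 and 16.9 times the genome density. Bins at chr22:23400001-23500000 (16.4 times on average) and chr9:133800001-133900000 (15.1 times) also hold genes named above. The others, chr1:121400001-121500000 (12.1, 19.1 and 17.5 times) and chr6:58700001-58800000 (12.4, 16.9 and 15.9 times), hold no protein-coding gene and lie beside centromeres. Replicate 1 was the lowest in both of these and not in the gene-bearing bins of the 5. This did not hold further down the order. Replicate 1 was the highest in chr16:46400001-46500000 (15.6, 14.2 and 13.1 times) and chr4:49100001-49200000 (14.7, 12.4 and 10.9 times), which hold no protein-coding gene. It was the lowest in chr9:133700001-133800000 with ABL1 (13.5, 13.7 and 13.7 times).

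No site was found in any replicate for 38 of the 11628 genes. Of these, 17 lie in the MHC region of chromosome 6 and 10 at the ends of chromosome X. The 5 that the naming rule takes from these ties are VAMP7, a vesicle fusion gene, VPS52, a vesicle tethering gene, YTHDC1, a reader of methylated RNA, and the zinc finger genes ZNF26 and ZNF84. The MHC region and the ends of chromosome X have further copies in the hg19 assembly, and reads were kept only where they mapped uniquely, so 0 sites there does not speak to breaks. Whether the same limit holds for YTHDC1, ZNF26 and ZNF84, which lie elsewhere, was not tested. An alternative haplotype of chromosome 4, chr4_ctg9_hap1, held 20, 20 and 14 sites, and whether it spans YTHDC1 was not tested.

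The gene lists differ in gene length, from a median of 11.9 kb for housekeeping genes to 1442 kb for genes of common fragile sites, and the part of length was not tested. Of 20 housekeeping genes, 17 had body densities above the genome value in every replicate, beside 53.7% of all 20098 protein-coding genes, and 1 was below, beside 24.2%. Their median density was 1.65, 2.33 and 2.22. The translation factor EEF2 was the highest, at 4.45, 6.29 and 4.95, and the 1 gene counted as below was the tubulin gene TUBB, at 0 sites in the MHC region, where unique mapping limits the count. For the promoters of the list the summed density was 2.80 ± 0.287, against 1.96 ± 0.0428 for all protein-coding genes (SD, n = 3 each).

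Of 24 erythroid genes, which K562 partly expresses, 18 were above in every replicate, beside 53.7% of all protein-coding genes, and 3 below, beside 24.2%, with a median of 1.78, 1.62 and 1.63. Short globin genes among the 18 rest on very few sites, with 2, 1 and 1 in HBA1, 3, 1 and 2 in HBA2, and 5, 2 and 3 in HBG1. NFE2, an erythroid transcription factor, had 2.23, 4.58 and 3.96, and the transferrin receptor TFRC had 1.32, 1.53 and 1.64. Of the 3 below, HBE1 (0.801 ± 0.0506) and HBG2 (0.855 ± 0.0457; SD, n = 3 each) are globin genes whose annotated spans of 237 and 252 kb cover almost the same stretch because of long transcripts, so these are not densities of the globin genes proper. The other, the heme synthesis gene FECH, had 0.798, 0.932 and 0.832.

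Of 20 genes of nervous tissue, mostly neuronal and with the glial genes GFAP, MBP and OLIG2 among them, 9 were above and 9 below in every replicate, beside the same 53.7% and 24.2%, with a median of 1.02, 0.951 and 1.01. MAP2, a neuronal microtubule protein, had 0.370, 0.322 and 0.329, whereas GFAP, a glial filament, had 2.83, 3.34 and 2.83. Of 12 very long genes of common fragile sites 8 were below in every replicate and 3 above, beside 31.2% and 50.6% of genes of at least 20 kb, with a median of 0.473, 0.476 and 0.442. FHIT stood at 0.446, 0.494 and 0.440, but WWOX at 1.38, 1.30 and 1.35.

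At equal depth the replicates were close to each other over large bins and shared few exact positions. The Pearson correlation of site counts over 28212 bins of 100 kb was 0.957 for replicates 1 and 2, 0.956 for 1 and 3, and 0.967 for 2 and 3. With the densest and the sparsest 1% of bins left out it was 0.937, 0.936 and 0.948. After division by the density expected from GC, over the same bins and at full depth, the values were 0.838, 0.840 and 0.854. For plain site counts at equal depth in bins of 10 kb the correlations were 0.819, 0.817 and 0.834. The bins share base composition, copy number and mappability between replicates, so these correlations are descriptions and carry no p-value. The share of sites at an identical position and strand was 0.599% for replicates 1 and 2, 0.604% for 1 and 3, and 0.876% for 2 and 3. The share expected from site density alone was not computed, so these values have no reference to be called high or low against. At full depth 6962 positions were hit in all 3 replicates.

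Most mitochondrial termini lay on the heavy (H) strand of the noncoding region, which carries the D-loop. It held 65.4%, 66.3% and 69.1% of all mitochondrial termini in 6.78% of the genome. The light (L) strand of the same region held 1.28%, 1.03% and 0.943%. Position 16107 of the H strand alone held 33.2%, 31.6% and 33.4%, and position 16108 beside it held 15.7%, 14.6% and 15.6%. Both are at the 3′ end of the 7S DNA. Nearly all of the 10 positions with the most termini, 9, 10 and 10 in the replicates, lay in the noncoding region, and all 10 were on the H strand. Together they held 60.9%, 61.25% and 63.7% of the termini. No mitochondrial sequence is shown, since the genome of the files has 16571 positions and the reference used here 16569, so that gene positions can be off by a few bases.

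**Figure D5:**
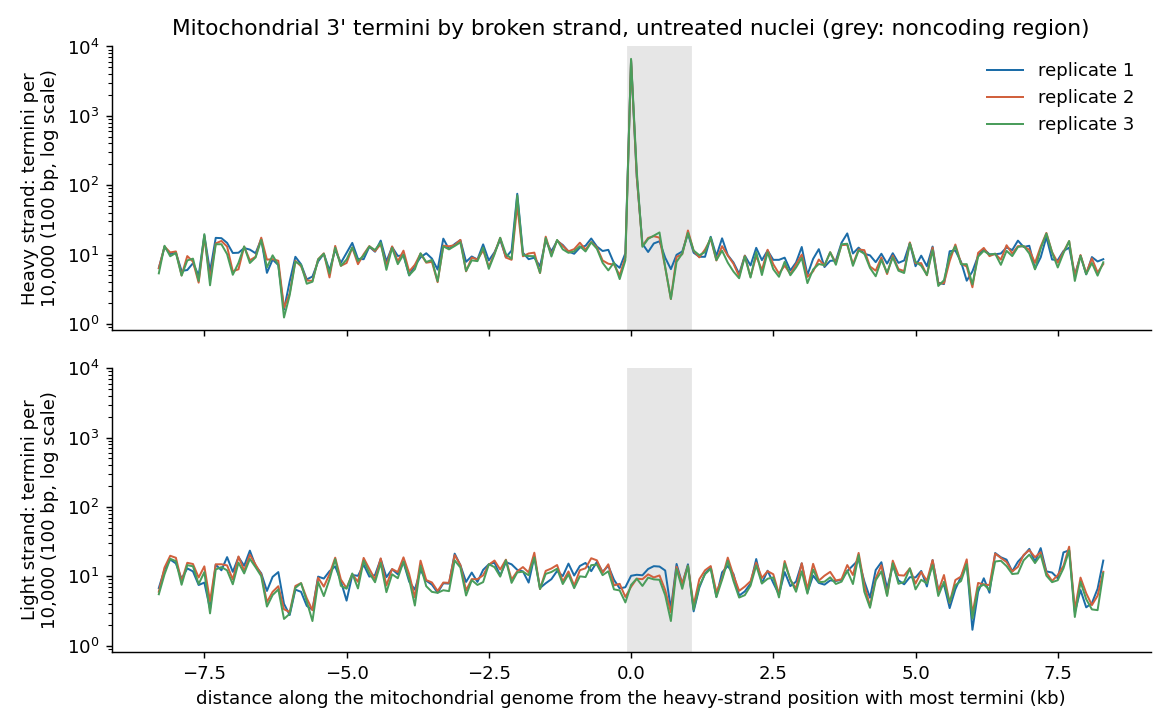
Termini per 10000 mitochondrial termini in steps of 100 bp (y axis, log scale) by distance from position 16107 around the circular genome (x axis, kb), for breaks on the heavy strand (top) and the light strand (bottom), with 1 line per untreated replicate and the noncoding region in grey. The 7S DNA end dominates the heavy strand, a smaller peak stands about 2 kb before it in MT-ND5, and the light strand has no peak of that kind.

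Outside the noncoding region both strands carried similar numbers of breaks. The H strand held between 14.7% and 16.3% of all mitochondrial termini and the L strand between 15.3% and 17.6%. The ratio of H to L was below 1 in every replicate, at 0.954, 0.855 and 0.962, and 1.00 ± 0.0190 (SD, n = 3) for unique positions. At equal depth 39.3%, 37.0% and 35.2% of all positions on both strands had at least 1 terminus.

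Most protein-coding genes had more breaks on the L strand. Of the 13 genes, 8 had an H to L ratio below 1 in every replicate, 2 had one above 1 and 3 fell on both sides. Those above were MT-ND5, a subunit of respiratory complex I (1.26, 1.08 and 1.35), and MT-ND4L of the same complex (1.04, 1.11 and 1.40). MT-ND5 rested on its 3 strongest H positions, described below, and without them its ratio was 0.960, 0.877 and 1.01, an alternative chosen after seeing the data. MT-CO1, a catalytic subunit of cytochrome oxidase, had the highest L-strand density, with 469 ± 19.7 termini per kb among 10000 termini outside the noncoding region, and 340 ± 11.9 on the H strand. MT-ND3, another complex I subunit, had the lowest densities on both strands, 194 ± 11.6 on the H strand and 189 ± 25.5 on the L strand (SD, n = 3 each). MT-ND6, the 1 protein-coding gene transcribed in the other direction, had 316 ± 18.2 and 361 ± 41.3, within the range of the other genes.

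The rRNA genes split. In MT-RNR1, the small ribosomal RNA, the H to L ratio was 1.18, 1.01 and 1.10, and in MT-RNR2, the large one, 0.943, 0.712 and 0.783. The 22 tRNA genes were sparser in breaks as a group, with 216 ± 5.19 termini per kb on the H strand and 188 ± 15.1 on the L strand, against 329 ± 11.9 and 361 ± 10.2 in the protein-coding genes (SD, n = 3 each, same unit). They varied widely among themselves. On the H strand they ran from 39.4 ± 10.2 in MT-TG, the glycine tRNA, to 438 ± 34.3 in MT-TC, the cysteine tRNA. On the L strand the range was 40.6 ± 6.95 in MT-TD, the aspartate tRNA, to 432 ± 97.1 in MT-TQ, the glutamine tRNA (SD, n = 3 each). The tRNA genes are short, and the smallest count behind these values was 10 termini.

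Single positions outside the noncoding region stood out on each strand. On the H strand the highest was 14116 in MT-ND5, with 0.489%, 0.311% and 0.466% of all mitochondrial termini, followed by 14117 (0.133%, 0.0870% and 0.108%) and 14118. On the L strand positions 6692 (0.0820%, 0.0695% and 0.0598%) and 6691 in MT-CO1 were highest, followed by 7236 in the same gene. The authors describe their filter for T-rich sequence for nuclear termini only. Whether these positions, and the termini behind the gene densities above, are breaks or ends produced by priming or tailing was not tested. At equal depth the Pearson correlation of counts over 155 bins of 100 bp outside the noncoding region was 0.923, 0.955 and 0.955 on the H strand and 0.894, 0.885 and 0.957 on the L strand (replicates 1 and 2, 1 and 3, 2 and 3). These bins share base composition and mappability.

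Against the 12 P1-treated samples, none of the 8 measures compared passed an exact permutation test within replicate numbers, whose smallest p is 0.008. Promoter density had the smallest p. It was 1.91 ± 0.0336 (SD, n = 3) without P1 and ran from 1.54 to 1.93 with a median of 1.82 in the treated samples (exact two-sided permutation p = 0.168, adjusted over the 8 measures 0.784). The GC ratio was 4.51 ± 0.0267 against 3.94 to 5.19 (exact permutation p = 0.752, adjusted 0.859). Opposite-strand pairs within 10 bp were 1.54 ± 0.0964 times the reference against 1.36 to 1.61 (exact permutation p = 0.392, adjusted 0.784). G or C at the terminus, a measure added after seeing the data, was at 77.3 ± 1.78% against 76.4 to 77.7% (exact permutation p = 0.744, adjusted 0.859).

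The plus-strand share was 50.5 ± 0.0544% without P1 and 50.4 to 50.8% with it (exact permutation p = 0.224, adjusted 0.784). Sites with a same-strand neighbour within 10 bp made up 9.89 ± 0.688% at full depth against 7.52 to 18.5% (p = 0.6 in the exact permutation test, adjusted 0.859), and sites with at least 2 termini 7.81 ± 0.365% against 7.44 to 13.8% (p = 0.392, adjusted 0.784). The mitochondrial to nuclear ratio was −5.24 in replicate 1 and −2.36 and −2.35 in the others on the log2 scale (mean −3.31 ± 1.66, SD, n = 3), against −6.54 to −2.03 (exact permutation p = 0.912, adjusted 0.912). The treated group joins 4 amounts of enzyme, and the group means of 2, 2, 4 and 7 of the 8 measures lay outside the range of the untreated replicates at 0.01, 0.1, 1 and 10 U, a count with no test. At 10 U these were all but terminal G or C, among them promoter density (1.59 ± 0.0715), close pairs (15.4 ± 2.89%) and the mitochondrial ratio (−6.24 ± 0.259; SD, n = 3 each). A p above the threshold does not show that untreated and treated samples were alike.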

How the data were processed

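The authors kept read pairs with the expected homopolymer tails, aligned them with BWA 0.7.12 to hg19 and to the mitochondrial genome, and took the first base after the T stretch of read 2 as the terminus. Nuclear termini with more than 40% T in the 20 upstream bases were removed by the authors. The deposited files give the count of termini per position and strand, and for mitochondria also RPM values, which the authors scaled by each sample's total and which were not used here. Counts are not independent molecules where PCR copies were kept, and removal of copies is not given in the sources used here. Region lists from SICER 1.1 and the clustered sites within them hold treated samples only and were not used.

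Sites on chromosomes 1 to 22 and X were counted per base of sequenced reference (2835673565 bases) with Python 3.11.15, numpy 2.4.6, scipy 1.17.1 and pandas 2.3.3, and genes came from GENCODE 44 on GRCh37. Bins needed 80% sequenced bases. Nuclear thinning used the mean of 5 draws, and mitochondrial thinning to 112179 termini 20 draws. GC expectations used 100 classes of 10 kb bins for chromosomes and the 201 bp window for gene features. The H strand was taken as the broken strand of plus-strand entries. Untreated samples were set against treated ones with exact permutations of the labels within replicate numbers (125 arrangements), two-sided, with Benjamini-Hochberg adjustment. Spreads are between 3 replicates, and the precision given covers these. The functions were tested on simulated data.

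The members and gene lists were chosen with earlier results of these data known. Named are the 3 densest and 3 sparsest chromosomes, the 5 densest and 5 sparsest genes of at least 20 kb (38 tied at 0), the 5 positions with the highest count in their weakest replicate, the 5 densest 100 kb bins, and outside the noncoding region the 3 strongest mitochondrial positions per strand. Alternatives were all termini, sites with at least 2 termini, other bin sizes, equal or full depth, GC-matched expectations, omission of extreme bins or positions, and omission of each replicate.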

Additional observations from a re-analysis of the deposited data

Results flagged for a closer look

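Outside chromosomes 1 to 22 and X, which the comparisons use, sites were densest on the unplaced contig chrUn_gl000220, at 22.6, 21.4 and 21.7 times the genome density (mean 21.9 ± 0.613, SD, n = 3), from 4969, 2632 and 2785 sites on 161802 sequenced bases. This is signal in data that no comparison of the report used. The contig is known to carry a ribosomal RNA gene unit, of which the cell has many copies, and breaks per copy and number of copies cannot be told apart. All contigs together held 0.579%, 0.529% and 0.517% of the nuclear sites.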

How the results depend on the processing

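Of the values recomputed under other settings, the following moved by more than the spread between replicates. The ratio of the densest to the sparsest chromosome was 3.86 for sites with at least 2 termini and 2.07 after division by the GC expectation. The GC ratio was 5.07 in bins of 10 kb, 4.09 in bins of 1 Mb, 4.55 for all termini, 4.74 for sites with at least 2 termini and 3.58 within chromosomes. With at least 2 termini the plus-strand share was 50.7% and the terminal G or C share 83.2%. Same-strand neighbours within 100 bp were found for 19.8% of sites. Promoter density was 1.19 against bases of the same local GC content and 2.07 within 500 bp. The correlation between replicates was 0.824 in bins of 10 kb, 0.991 in bins of 1 Mb and 0.940 without the extreme bins. With unique positions the mitochondrial H to L ratio was 1.00 and the share in the noncoding region 7.12%. The cause of these shifts was not tested, other than that unique positions give each position a weight of 1.

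With each replicate left out in turn, the chromosome ratio ran from 3.56 to 3.58, the GC ratio from 4.495 to 4.52, the plus-strand share from 50.4 to 50.5%, terminal G or C from 76.3 to 78.0%, close pairs from 7.58 to 10.1%, promoter density from 1.89 to 1.92, the correlation from 0.956 to 0.967, the H to L ratio from 0.905 to 0.958, and the noncoding share from 67.0 to 68.7%.

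Among the differences between untreated and treated samples, none of those that changed sign passed after adjustment. The mitochondrial log2 difference was 0.14 with all samples and −0.78 without the 10 U samples (exact permutation p = 0.125), and −0.31 to 1.05 without 1 replicate. The difference in close pairs was 0.373 percentage points without 10 U (exact permutation p = 0.734) and −1.70 to −0.792 without 1 replicate. That in the GC ratio was −0.0308 to 0.168 without 1 replicate, and that in terminal G or C −0.877 (without replicate 1; p = 0.04, the smallest this design allows, adjusted 0.32, exact permutation) to 0.703. No pairing of samples by replicate number was detected, as 12 same-numbered pairs had correlations of deviations from −0.0570 to 0.0587. Whether same-numbered samples shared a preparation or batch was not tested. Without the replicate block the p-values of the 8 measures ran from 0.141 to 0.897 (exact permutation), and the smallest adjusted p was 0.738.

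The spread of 3 replicates limits every value, and replicate 1 alone set the spread of close pairs at equal depth.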
